A study of Drosophila melanogaster with 34 samples.

Results

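The humoral immune genes of *Drosophila melanogaster* described here are a fixed list of 36 genes, chosen by name for their known roles. The list comprises 14 antimicrobial peptide genes, 11 peptidoglycan recognition protein (PGRP) genes, 4 thioester protein (TEP) genes and 7 genes of the Toll and Imd signalling pathways. Of the 36 genes, 33 were matched by gene identifier among the 16495 genes of the count table: 13 antimicrobial peptide genes, 10 PGRP genes, 3 TEP genes and 7 signalling genes. The remaining 3, *Drs*, *PGRP-SC1a* and *Tep1*, were not analysed here.

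The measurements are RNA-seq counts from whole bodies of mated females, 3 to 7 days old, pooled as 20 females per library. The females came from 6 inbred strains started from flies collected in Europe in 2015. They had been inbred over 20 generations, and strains with much inbreeding were preferred so as to be mostly homozygous, which was not examined here. GIM-012, MUN-008 and MUN-020 lie at the copper-tolerant end of a survival assay, and AKA-018, COR-018 and JUT-008 at the copper-sensitive end. Copper females were exposed by contact and feeding to 20 mM copper sulphate in 5% sucrose for 24 h, and control females to the same sucrose solution without copper for the same time. The 34 libraries comprise 3 control and 3 copper libraries per strain, except that AKA-018 and MUN-020 have 2 control libraries. The sources describe no transgene and no experimental infection in these flies, and whether any carried an infection was not examined. Per the study's methods, dead flies of COR-018 and JUT-008 were removed, so that only survivors were measured in those strains.

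Flies have no antibodies, and their humoral defence rests on peptides secreted into the haemolymph, mostly from the fat body, and produced locally in epithelia such as the gut. Peptidoglycan recognition proteins sense bacterial cell wall fragments or cleave them into forms that no longer signal. The Imd pathway ends in the NF-kappaB factor Relish (*Rel*) and drives genes such as the diptericins, attacins and cecropins, whereas the Toll pathway is switched on by cleaved Spätzle (*spz*) and ends in Dif and Dorsal (*dl*), which Cactus (*cact*) holds in the cytoplasm.

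Libraries held 22796637 to 42567920 counts with a median of 35393968. Levels are given as CPM, a gene's count relative to the library total, in which a single count corresponds to 0.0235 to 0.0439, and were scaled by the trimmed mean of M-values (TMM). All 5 metallothionein genes, the standard sign of metal exposure, rose in both classes. Of 18 listed male accessory gland genes, which are not expected in females, 4 were found in the table. The summed level of these 4 was at most 0.13 CPM in the 17 tolerant libraries. It reached 20.5 and 35.7 CPM in both AKA-018 controls, 47.0 CPM in COR-018 control 4, and 53.6 and 22.9 CPM in JUT-008 controls 1 and 2. Among sensitive copper libraries that sum was highest at 13.1 CPM. The part of this signal in the results below was not tested. Because RNA was taken from whole bodies, fewer cells of a type and less RNA per cell cannot be told apart. Below, a gene was called where edgeR's quasi-likelihood test gave an adjusted p below 0.05 (Benjamini-Hochberg over all genes tested) and a fold change over 1.5, and fold changes are given as log2 with their standard error (SE).

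In control libraries the 6 most abundant members per length of transcript were *cact*, *nec*, *Rel*, *Tep4*, *spz* and *Tep2*, while the other signalling and TEP genes ranked between 13 and 25 of 33. The inhibitor gene *cact* had the highest median level at 78.2 CPM per kb, followed by *nec*, a serpin that restrains Toll activation, at 51.7 CPM per kb. *Rel* had 38.1 CPM per kb and *Tep4*, a complement-like thioester protein gene, 35.4 CPM per kb. Of the 13 matched antimicrobial peptide genes, which do not include *Drs*, *Def* (Defensin) and *Mtk* (Metchnikowin) were the most abundant at 26.1 and 24.9 CPM per kb. *AttD* was the lowest member at 0.0855 CPM per kb.

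The antimicrobial peptide genes differed widely between replicate libraries of the same strain and treatment. After removing group means, their median standard deviation (SD) was 1.65 on the log2 CPM scale over 13 genes, against 0.21 over all 12511 genes tested, and 9 of the 13 lay above the 95th percentile of all genes. The lowest was *Def*, at 0.65, and the highest *CecA2*, a cecropin gene, at 2.34. The 500 genes nearest to *CecA2* in level had a median spread of 0.68. *DptA*, a diptericin gene with a spread of 1.94, lay among genes whose median was 0.28. The other roles were close to the bulk of genes, with medians of 0.27 for the PGRP genes, 0.20 for the TEP genes and 0.18 for the signalling genes.

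**Figure D1:**
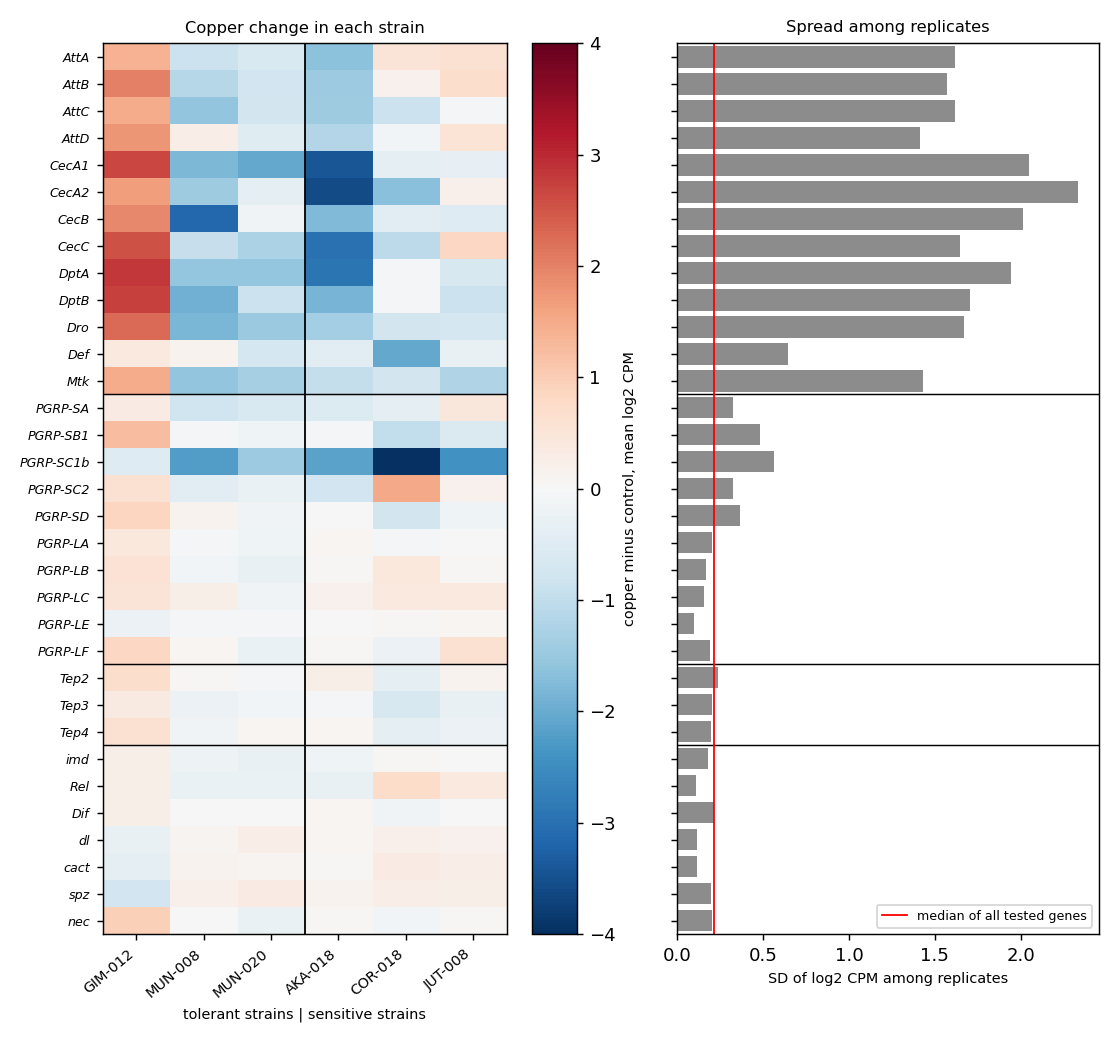
Left, difference in mean log2 CPM between copper and control libraries (colour scale) for the 33 members in each of the 6 strains, with horizontal lines between antimicrobial peptide, PGRP, TEP and signalling genes. Right, SD of log2 CPM among replicates for the same members, with the median of all tested genes, 0.21, as a red line. The 12 antimicrobial peptide genes other than *Def* range from 1.42 to 2.34, and *PGRP-SC1b* is negative in all 6 strains.

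The same libraries were high for most peptides at once. The CPM of the 12 antimicrobial peptide genes without *Def* were summed per library, a grouping chosen after the values were seen and therefore given without a test. In GIM-012 the sums were 13.8, 14.4 and 15.7 CPM in controls and 91.3, 54.6 and 29.2 CPM in copper libraries. In MUN-008 they were 38.8, 95.8 and 637 CPM in controls and 25.5, 85.0 and 47.7 CPM after copper. MUN-020 had 196 and 41.5 CPM in controls and 29.7, 30.2 and 92.7 CPM after copper. GIM-012 was thus the only strain whose copper libraries all lay above its controls, and the highest sum of all libraries was that of 1 untreated MUN-008 library.

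Among sensitive strains, AKA-018 had 409 and 42.8 CPM in controls and 176, 25.6 and 17.7 CPM after copper. COR-018 had 60.4, 132 and 220 CPM in controls and 207, 111 and 37.2 CPM after copper. JUT-008 had 11.5, 8.08 and 125 CPM in controls and 121, 8.6 and 6.60 CPM after copper. Control and copper ranges overlapped in all 3 sensitive strains. The ratio of the highest to the lowest library of a group ran from 1.14 in GIM-012 controls to 18.3 in JUT-008 copper libraries.

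In 5 of the 12 groups, of which 2 hold only 2 libraries, a single library had the highest value for all 12 peptides: MUN-008 control 4, MUN-020 control 1, AKA-018 control 3, AKA-018 copper 1 and JUT-008 control 3. *Def* was highest in the library with the highest sum in only 4 of 12 groups. *PGRP-SB1*, which encodes an enzyme that degrades peptidoglycan and is not part of the sum, was highest there in 9 of 12 groups, a count reached by 0.536% of the 12499 other genes. Outside the members, the immune-induced peptide genes *IBIN* and *edin* were highest there in 11 and 10 groups. They had the highest counts of their list and were picked after the values were seen. Other genes of that list were highest there in as few as 2 groups, where the median of all genes was 4. *Rel* was highest there in 7 groups and *PGRP-SC1b* in 8, while 7.77% of genes reached 7 or more.

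**Figure D2:**
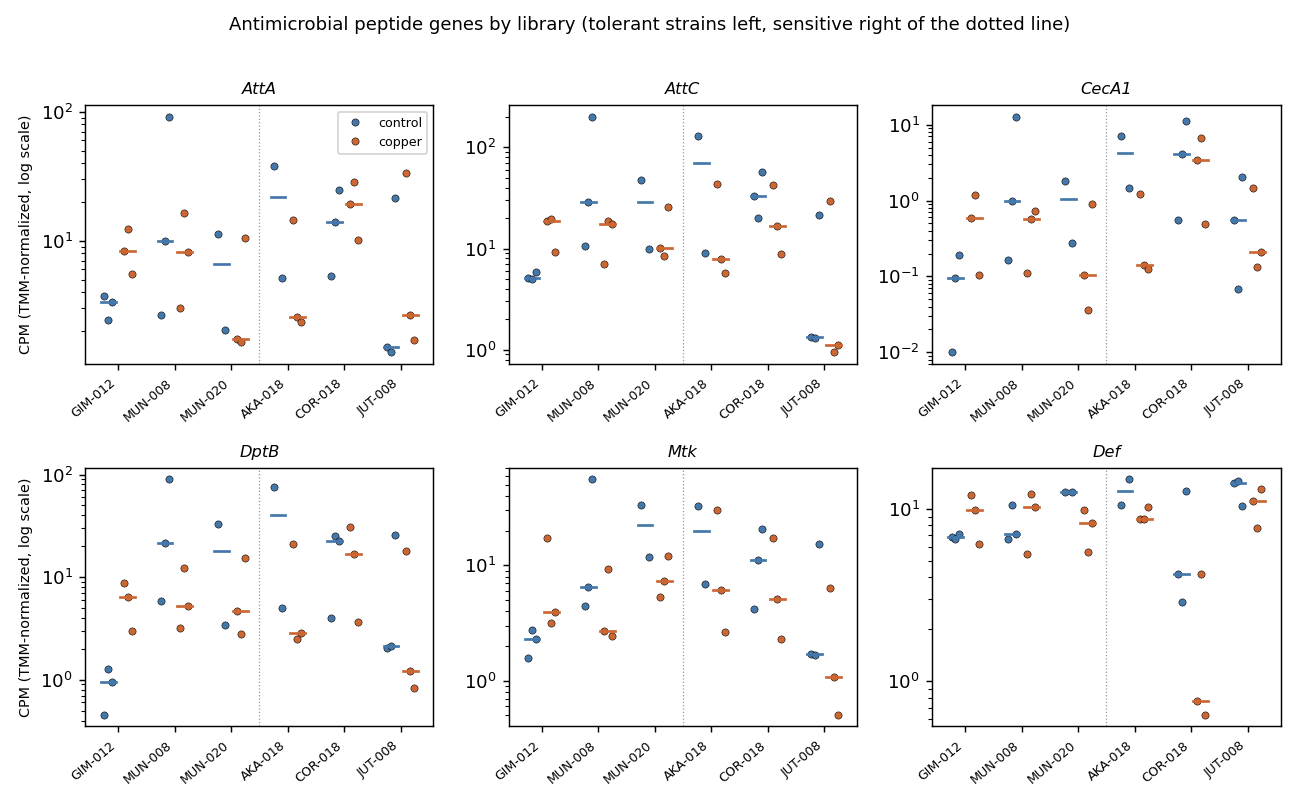
CPM (TMM-normalized, log scale) of *AttA*, *AttC*, *CecA1*, *DptB*, *Mtk* and *Def* in each of the 34 libraries, with controls in blue, copper in orange, horizontal bars for group medians and a dotted line between tolerant and sensitive strains. The *CecA1* value of 0 in 1 GIM-012 control is drawn at 0.01. Single libraries stand far above their replicates, such as 199 CPM for *AttC* in 1 MUN-008 control against 10.7 and 29.1 in the others.

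The fat body is the main source of these peptides, and 4 of 6 fat body markers were found in the table. Their sum was 1177, 1793 and 1991 CPM in the MUN-008 controls, and 2571 and 2051 CPM in the AKA-018 controls, highest in the libraries with the most peptide RNA. In the MUN-020 controls it was 2363 and 2711 CPM, lower in the library with more peptide RNA. In the GIM-012 copper libraries it was 1392, 2457 and 2607 CPM, again lowest in the library with the most peptide RNA. Among the libraries with the highest peptide sum of their group, the summed male accessory gland genes were 0 CPM in MUN-008 control 4 and 0.0937 CPM in JUT-008 control 3. They were 47.0 CPM in COR-018 control 4, against 0.128 and 0.0678 CPM in its replicates, and 20.5 CPM in AKA-018 control 3, against 35.7 CPM in the other AKA-018 control. Male genes were thus high in some of the libraries rich in peptide RNA and near 0 in others. The part of these markers in the spread was not tested.

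Against this spread, no antimicrobial peptide gene was called in the copper response of either class. The 13 genes had a median log2 fold change of -0.68 in tolerant strains and -0.80 in sensitive strains, where the medians of all genes tested were -0.00 and -0.02. The estimates were negative for 11 of 13 genes in tolerant and 13 of 13 in sensitive strains, with large errors. Most of these genes were high in the same libraries, so their signs are not separate observations. In tolerant GIM-012 alone, all 8 of those tested had positive estimates. For *DptA* the change was -0.76 ± 0.92 (SE) in tolerant and -0.60 ± 0.93 in sensitive strains. *CecA1* gave -1.09 ± 1.05 and -1.28 ± 0.83. *Def* was the most precise, at 0.03 ± 0.20 in tolerant and -0.86 ± 0.39 in sensitive strains, the latter with an unadjusted p of 0.0431 and an adjusted p of 0.114 by edgeR's quasi-likelihood test.

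For *Def* the largest estimate was in COR-018. Its control libraries had 4.19, 2.87 and 12.6 CPM and its copper libraries 0.766, 4.20 and 0.640 CPM. The groups overlapped through 1 copper library, and the change of -1.80 ± 0.93 had an adjusted p of 0.189 in that strain alone by edgeR's quasi-likelihood test.

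In the fits of single strains, antimicrobial peptide genes were called in GIM-012 only, where 4 of the 8 tested rose. In GIM-012 9 of 28 members tested were called, where 5.62% of all genes were called, and 8 of the 9 rose (3.47% of all genes rose). *AttC*, which encodes an attacin active against Gram-negative bacteria, went from 5.16, 5.06 and 5.90 CPM in controls to 18.5, 19.7 and 9.22 CPM. All copper libraries lay above the controls, and the change was 1.54 ± 0.28 (edgeR's quasi-likelihood test, adjusted p = 0.0345).

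The diptericin gene *DptB* went from 0.457, 1.27 and 0.943 CPM to 8.77, 6.46 and 3.01 CPM in GIM-012, a change of 2.74 ± 0.48 (edgeR's quasi-likelihood test, adjusted p = 0.0341). *AttB* rose by 2.09 ± 0.33 and *AttA* by 1.44 ± 0.32. *DptA*, *Dro* and *Mtk* had estimates of 3.17, 2.95 and 1.87 with adjusted p of 0.0526, 0.0632 and 0.0956 (edgeR's quasi-likelihood test) and were not called. The *CecA1*, *CecA2*, *CecB*, *CecC* and *AttD* counts were too low in GIM-012 for the test.

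Over all members, 20 of 33 had every GIM-012 copper library above every control, where 18.2% of all genes did, and 3 had every copper library below, where 15.8% did. GIM-012 also had the lowest control mean of the 6 strains for 11 of the 13 antimicrobial peptide genes, the exceptions being *Def* and *AttD*. The JUT-008 means include control 3, with a peptide sum of 125 CPM. The other JUT-008 controls had sums of 11.5 and 8.08 CPM, below the 13.8, 14.4 and 15.7 CPM of the GIM-012 controls. Most peptide genes were high in the same libraries, so the 11 are not separate observations. The share of all genes lowest in GIM-012 is not given here. The calls depended on single libraries: leaving out 1 GIM-012 library at a time left between 0 and 13 members called. The summed haemocyte markers went from 54.5, 72.7 and 56.2 CPM to 87.3, 103 and 117 CPM, and the summed fat body markers went from 1481, 1750 and 1569 CPM to 1392, 2457 and 2607 CPM. The summed midgut markers went from 2947, 4029 and 2662 CPM to 5295, 4893 and 4479 CPM without overlap, and 2 of 6 were called higher there (*Amy-p* and *LManVI*). The part of these markers in the peptide result was not tested. *He* was too low for the test, and 1 of the 6 haemocyte markers tested (*Sr-CI*) was called in GIM-012.

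Whether the copper response of the peptide genes differed among strains was tested by the strain by treatment interaction, which called 13 of 33 members, where 30.1% of all genes were called. None of the 13 antimicrobial peptide genes was among them, and none of them had an unadjusted p below 0.05 by edgeR's quasi-likelihood test, where 40.7% of all genes did. DESeq2 also called no antimicrobial peptide gene. Without COR-018 copper replicate 3, the copper library with the most *Def*, that gene was called (edgeR's quasi-likelihood test, adjusted p = 0.00378). The rise in GIM-012 is therefore not shown to differ from the other strains at this spread.

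In MUN-008 the 11 antimicrobial peptide genes tested had a median estimate of -2.42, of which 6 had an unadjusted p below 0.05 (10.2% of all genes did) and none was called by edgeR's quasi-likelihood test. These estimates include control 4, whose peptide sum was 637 CPM.

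In AKA-018 the peptide result rested on 1 library. With all 5 AKA-018 libraries, 2 of 33 members were called, where 6.43% of all genes were called, and neither was a peptide gene. Without copper replicate 1, whose peptide sum was 176 CPM, 11 further members were called, all antimicrobial peptide genes and all lower after copper. This was 1 of 5 fits without 1 library, over which 0 to 13 members were called. It set 2 copper libraries against 2 controls. The share of all genes called in it is not given here, so the count is not read as particular to the members. *DptA*, for example, moved from -2.09 ± 1.22 to -5.26 without that library. The controls of this comparison were only 2, at 409 and 42.8 CPM for the peptide sum.

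*PGRP-SC1b* was the only member called in both classes. It encodes a secreted amidase that cleaves peptidoglycan in the gut and dampens Imd signalling, and lies at 2R:8713446-8715094 on the plus strand (dm6). It was the only member of 33 called in the tolerant strains, where 1.53% of all genes were called (0.509% as lower). In the sensitive strains it was 1 of 2 members called, where 7.75% of all genes were called (5.94% as lower). It was also the only member whose estimate had the same sign in all 6 strains, where 7.27% of all genes did.

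In MUN-008 *PGRP-SC1b* had 11.9, 8.64 and 12.9 CPM in controls and 1.99, 3.10 and 2.01 CPM after copper. MUN-020 had 2.496 and 2.351 CPM in controls and 0.924, 0.797 and 0.888 CPM after copper. GIM-012 had 0.537, 0.329 and 0.218 CPM in controls and 0.528, 0.149 and 0.156 CPM after copper. The copper libraries of MUN-008 and MUN-020 lay entirely below the controls, and those of GIM-012 overlapped them at a level of 5 to 20 counts per library.

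AKA-018 had 3.39 and 9.46 CPM of *PGRP-SC1b* in controls and 1.06, 1.69 and 1.13 CPM after copper. JUT-008 had 0.855, 1.26 and 1.34 CPM in controls and 0.271, 0.135 and 0.209 CPM after copper. COR-018 had 0.333, 0.226 and 0.429 CPM in controls and 0.0255, 0 and 0 CPM after copper. No copper library reached a control in any of the 3 sensitive strains. In COR-018 these values were 38 counts over 3 controls and 1 count over 3 copper libraries, a ratio of 38.4 with a 95% interval of 6.48 to 1550 (exact, counting error only). In total the copper libraries lay below the controls in 5 of 6 strains, which held for 1.94% of genes over at least 5 strains.

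The fitted change of *PGRP-SC1b* was -1.54 ± 0.29 in tolerant strains (edgeR's quasi-likelihood test, adjusted p = 0.00536) and -2.86 ± 0.40 in sensitive strains (adjusted p = 0.000166). It was called in both classes whichever of the 17 libraries of a class was left out. In single strains it was called in MUN-008 (-2.23 ± 0.24), MUN-020 (-1.43 ± 0.23), AKA-018 (-2.30 ± 0.42) and JUT-008 (-2.47 ± 0.43). When 1 library was left out, the call was kept in 6 of 6 fits in MUN-008, but lost in 3 of 5 in MUN-020 (-1.48 to -1.37), in 5 of 6 in JUT-008 (-2.73 to -2.23) and, in AKA-018, without control 4 (-1.38). In MUN-008 it was the only member called of 31 tested, where 1.14% of all genes were called. In MUN-020 it was the only one of 31, where 4.22% of all genes were called, and in JUT-008 the only one of 29, where 4.11% were called.

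The tolerant and sensitive changes of *PGRP-SC1b* differed by 1.29 ± 0.47 on the log2 scale, with an adjusted p of 0.111 for the class by treatment interaction (edgeR's quasi-likelihood test). The strain by treatment interaction had an adjusted p of 0.0106 by the same test. Leaving out all libraries of MUN-008 or of MUN-020 removed the call in the tolerant class. Its control level varied 33.8-fold among strains, from a mean of 0.329 CPM in COR-018 to 11.1 CPM in MUN-008. Reads that map to more than 1 place were discarded by the authors' counting, and *PGRP-SC1b* has the near-identical neighbour *PGRP-SC1a*, so that its level is uncertain. The same holds for *CecA1* with *CecA2* and *AttA* with *AttB*.

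**Figure D3:**
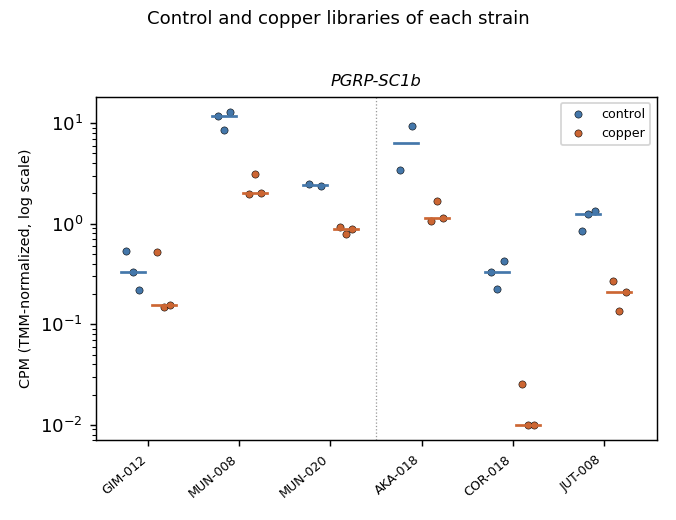
CPM (TMM-normalized, log scale) of *PGRP-SC1b* in the 34 libraries, with controls in blue, copper in orange, bars for group medians and a dotted line between tolerant and sensitive strains. Values of 0 in 2 COR-018 copper libraries are drawn at 0.01. Copper libraries lie below controls in 5 of 6 strains, and GIM-012 overlaps.

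The summed midgut markers, the tissue in which *PGRP-SC1b* is best known, ranged from 2528 to 5008 CPM in tolerant controls and from 2458 to 5295 CPM after copper. In sensitive strains they ranged from 761 to 6442 CPM in controls and from 793 to 3834 CPM after copper, with 3 of 6 midgut markers called lower in that class and none called in the tolerant class. By strain, the midgut sum fell without overlap in MUN-020, from 5008 and 4696 CPM to 3500, 3654 and 4029 CPM. In AKA-018 it fell from 5655 and 6442 CPM to 3834, 2816 and 3638 CPM. In COR-018 it fell from 3017, 2319 and 1476 CPM to 965, 793 and 1071 CPM, also without overlap. The ranges overlapped in MUN-008 and JUT-008, and the sum rose in GIM-012. The part of the midgut markers in the fall of *PGRP-SC1b* was not tested.

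*PGRP-SB1*, at 3L:16727299-16727989 on the minus strand (dm6), was the other member called in the sensitive strains. In COR-018 it had 18.7, 15.0 and 24.8 CPM in controls and 10.1, 8.14 and 11.2 CPM after copper. In JUT-008 it had 12.1, 8.01 and 14.0 CPM in controls and 10.9, 5.90 and 6.48 CPM after copper. In AKA-018 it had 46.9 and 19.0 CPM in controls and 37.2, 26.3 and 25.3 CPM after copper. Only the COR-018 libraries were separated by treatment.

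The class change of *PGRP-SB1* in sensitive strains was -0.60 ± 0.21 (edgeR's quasi-likelihood test, adjusted p = 0.0442). The call was lost in 12 of 17 fits that left out 1 library, over which the change ran from -0.75 to -0.50. Among tolerant strains, GIM-012 had 7.57, 11.5 and 9.07 CPM in controls and 26.7, 22.1 and 17.3 CPM after copper. MUN-008 had 12.3, 17.6 and 50.7 CPM in controls and 22.3, 21.8 and 19.1 CPM after copper. MUN-020 had 28.6 and 19.3 CPM in controls and 21.6, 17.8 and 23.6 CPM after copper. *PGRP-SB1* thus rose in GIM-012 (1.22 ± 0.22) and fell in COR-018 (-0.97 ± 0.21), and its strain by treatment interaction had an adjusted p of 0.0326 (edgeR's quasi-likelihood test). The interaction call was lost in 7 of 34 fits without 1 library, and the COR-018 call in 4 of 6.

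*PGRP-SC2*, another secreted amidase gene, changed in opposite directions in 2 sensitive strains. In COR-018 it had 3.20, 4.43 and 9.07 CPM in controls and 15.0, 12.8 and 15.6 CPM after copper. In AKA-018 it had 37.4 and 54.2 CPM in controls and 26.3, 22.2 and 31.6 CPM after copper. In both strains the groups did not overlap, with changes of 1.39 ± 0.39 in COR-018 and -0.78 ± 0.20 in AKA-018. In COR-018 alone it was 1 of 5 members called of 30 tested, where 10.4% of all genes were called.

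The remaining strains gave smaller estimates for *PGRP-SC2*. GIM-012 had 15.9, 20.1 and 14.7 CPM in controls and 31.0, 25.9 and 21.3 CPM after copper (0.61 ± 0.18, not called). MUN-008 had 42.7, 46.3 and 56.4 CPM in controls and 39.2, 40 and 28.8 CPM after copper (-0.43 ± 0.16). MUN-020 had 47.9 and 44.0 CPM in controls and 33.1, 43.9 and 39.3 CPM after copper, and JUT-008 had 15.8, 13.8 and 12.3 CPM in controls and 20.25, 12.95 and 15.08 CPM after copper. The copper libraries lay above the controls in GIM-012 and below them in MUN-008 and MUN-020. The strain by treatment interaction of *PGRP-SC2* had an adjusted p of 0.00106 (edgeR's quasi-likelihood test), held in 34 of 34 fits without 1 library. The COR-018 call was lost in 5 of 6 such fits and the AKA-018 call in 2 of 5.

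**Figure D4:**
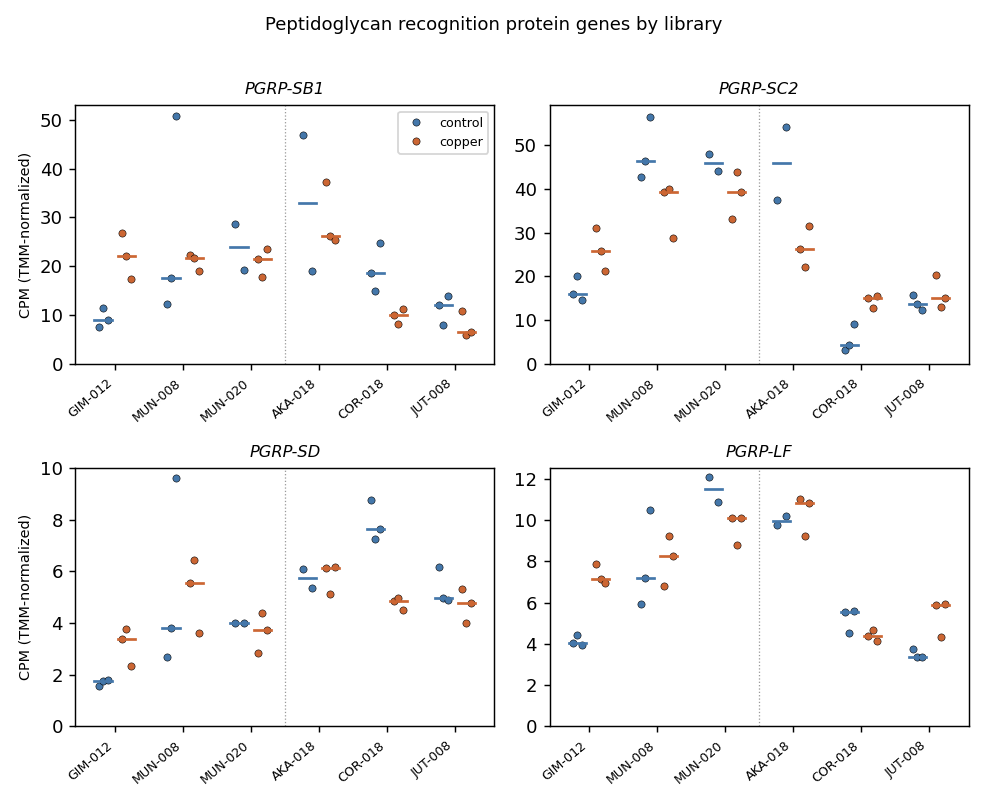
CPM (TMM-normalized) of *PGRP-SB1*, *PGRP-SC2*, *PGRP-SD* and *PGRP-LF* in the 34 libraries, with controls in blue, copper in orange, bars for group medians and a dotted line between tolerant and sensitive strains. *PGRP-SC2* lies higher after copper in COR-018 and lower in AKA-018, and all 4 genes lie higher after copper in GIM-012.

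Of the other PGRP genes, *PGRP-SD*, a circulating sensor, was called in COR-018 only. There it went from 8.77, 7.24 and 7.64 CPM to 4.85, 4.95 and 4.50 CPM without overlap, a change of -0.71 ± 0.12 (edgeR's quasi-likelihood test, adjusted p = 0.0122), and the call was lost in 2 of 6 fits without 1 library. *PGRP-LF*, a membrane protein that blocks the receptor PGRP-LC, was called in GIM-012, where it rose from 4.03, 4.45 and 3.96 CPM to 7.89, 7.14 and 6.94 CPM (0.81 ± 0.17). In JUT-008 *PGRP-LF* had 3.76, 3.34 and 3.34 CPM in controls and 5.91, 4.35 and 5.94 CPM after copper, also without overlap (0.63 ± 0.22, not called). *PGRP-LC*, the main Imd receptor gene, had an adjusted p of 0.01 in the sensitive strains (edgeR's quasi-likelihood test) at a change of 0.32 ± 0.08, below the fold threshold. *PGRP-SA*, *PGRP-LA*, *PGRP-LB* and *PGRP-LE* were called in no class and no single strain, with class estimates between -0.36 and 0.19.

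Without a fold threshold, 6 of 33 members had an adjusted p below 0.05 in the sensitive strains, where 25.3% of all genes did. Besides *PGRP-SC1b*, *PGRP-SB1* and *PGRP-LC* these were *PGRP-SD*, *Tep3* and *cact*.

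*Tep2*, *Tep3* and *Tep4* encode secreted proteins related to complement factors, made by haemocytes and fat body. All 3 had an adjusted p below 0.05 in the strain by treatment interaction and none was called in a class. That interaction call was lost in 11 of 34 fits without 1 library for *Tep2*, in 5 for *Tep3* and in 1 for *Tep4*, and for *Tep2* and *Tep3* also with library-size scaling. *Tep2* rose in GIM-012 from 131, 140 and 116 CPM to 189, 210 and 228 CPM (0.69 ± 0.14, edgeR's quasi-likelihood test, adjusted p = 0.0397). *Tep3* fell in COR-018 from 26.5, 18.4 and 21.9 CPM to 14.4, 15.7 and 12.8 CPM (-0.62 ± 0.14, adjusted p = 0.0283). In neither case did the groups overlap, but without 1 library the *Tep2* call was lost in 4 of 6 fits and the *Tep3* call in 5 of 6. *Tep4* had an estimate of 0.58 ± 0.13 in GIM-012 and -0.40 ± 0.17 in COR-018, neither called.

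Markers of haemocytes and fat body were read beside these results. In COR-018, where 1 of 6 haemocyte and 2 of 4 fat body markers were called lower, the summed haemocyte markers were 133, 93.8 and 83.2 CPM in controls and 69.2, 63.3 and 55.9 CPM after copper. The summed fat body markers there were 3029, 1666 and 2121 CPM in controls and 1039, 941 and 1088 CPM after copper. In GIM-012 1 of 6 haemocyte markers and none of 3 fat body markers tested was called, and in MUN-020, where no TEP gene was called, 3 of 6 haemocyte markers were called higher. Over the classes, 3 of 6 haemocyte markers tested were called higher in tolerant strains (*Hml*, *NimC1*, *Sr-CI*) and 2 of 6 lower in sensitive strains (*Hml*, *eater*). Of 4 fat body markers, none was called in tolerant strains and *apolpp* was called lower in sensitive strains. The part of these markers in the TEP, *PGRP-SB1* and *PGRP-SD* results was not tested.

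Among the signalling genes, *Rel* had the strongest difference among strains. It lies at 3R:9044183-9047977 on the minus strand (dm6) and encodes the NF-kappaB factor at the end of the Imd pathway. In COR-018 it had 143, 127 and 144 CPM in controls and 231, 223 and 232 CPM after copper. In JUT-008 it had 112, 125 and 121 CPM in controls and 170, 139 and 164 CPM after copper. In GIM-012 it had 123, 127 and 125 CPM in controls and 165, 138 and 136 CPM after copper. In these 3 strains every copper library lay above every control.

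The other strains went the other way. In AKA-018 *Rel* had 188 and 190 CPM in controls and 155, 146 and 163 CPM after copper. In MUN-008 it had 125, 140 and 173 CPM in controls and 121, 125 and 116 CPM after copper. In MUN-020 it had 186 and 173 CPM in controls and 146, 146 and 155 CPM after copper. In these 3 strains every copper library lay below every control. The strain by treatment interaction of *Rel* had an adjusted p of 1.41e-05 (edgeR's quasi-likelihood test), the lowest of the members, and between 2.07e-06 and 6.76e-05 over the 34 fits without 1 library.

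In single strains *Rel* was called in COR-018 (0.74 ± 0.06, edgeR's quasi-likelihood test, adjusted p = 0.00239), and in 6 of 6 fits there without 1 library. Its estimates were 0.39 ± 0.11 in JUT-008 and -0.29 ± 0.12 in AKA-018, neither called. The class by treatment interaction of *Rel*, -0.39 ± 0.15, had an adjusted p of 0.134 by the same test. Strains moved in both directions within each class.

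**Figure D5:**
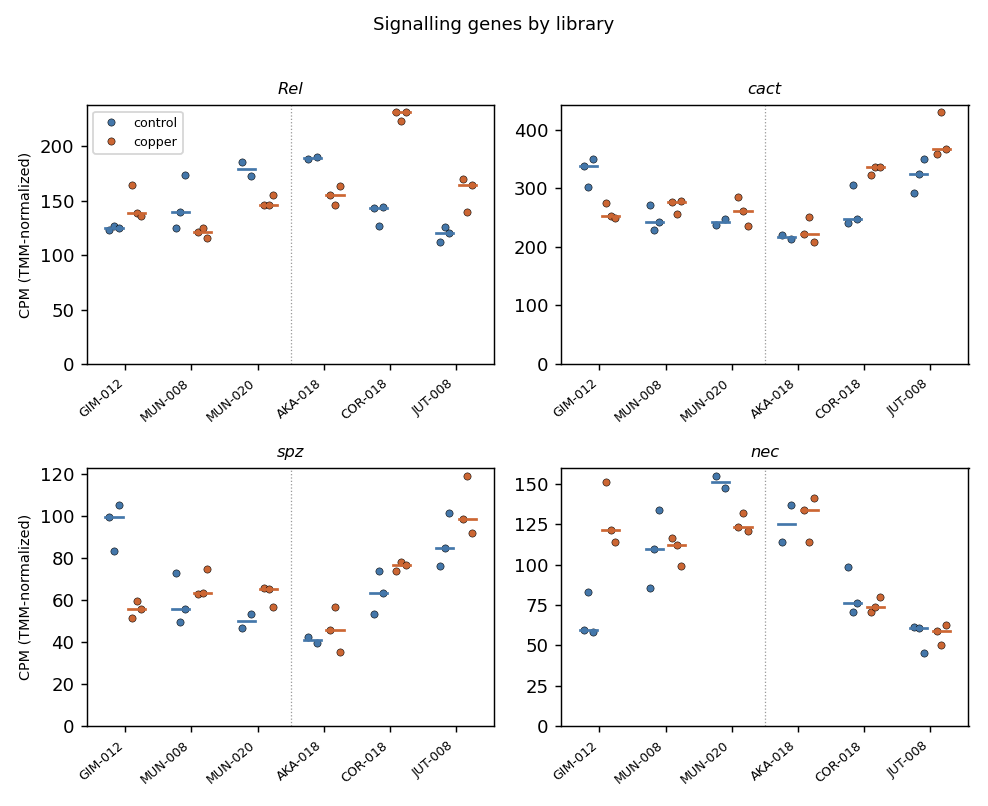
CPM (TMM-normalized) of *Rel*, *cact*, *spz* and *nec* in the 34 libraries, with controls in blue, copper in orange, bars for group medians and a dotted line between tolerant and sensitive strains. *Rel* lies higher after copper in GIM-012, COR-018 and JUT-008 and lower in MUN-008, MUN-020 and AKA-018, and *spz* and *cact* lie lower after copper in GIM-012.

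Of the Toll pathway genes, *spz* and *nec* were called, both in GIM-012 alone. *spz*, the ligand gene of Toll, fell in GIM-012 from 99.3, 83.1 and 105 CPM to 51.6, 59.5 and 55.7 CPM (-0.80 ± 0.13, edgeR's quasi-likelihood test, adjusted p = 0.0324). Its estimates in the other 5 strains were between 0.17 and 0.36. *cact* went from 338, 302 and 351 CPM to 275, 253 and 249 CPM in GIM-012 (-0.36 ± 0.12, not called), and its other estimates were between 0.07 and 0.34. *nec* rose in GIM-012 from 59.5, 83.1 and 58.6 CPM to 151, 122 and 114 CPM (0.93 ± 0.18, adjusted p = 0.0374). The strain by treatment interactions of *spz*, *cact* and *nec* had adjusted p of 0.00401, 0.0105 and 0.00354 by edgeR's quasi-likelihood test. *imd*, *Dif* and *dl* were called in no class and no single strain. No ovary markers were read, and the part of ovary RNA in the *spz*, *cact* and *nec* changes was not tested.

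None of the 33 members was called in the class by treatment interaction, where 4.13% of all genes were called by edgeR's quasi-likelihood test. At an unadjusted p below 0.05 there were 7 members (21.3% of all genes), and DESeq2 called 1, *Rel*. Taking strains as the units, the copper changes of the 3 tolerant and the 3 sensitive strains did not overlap for 1 member, *PGRP-LE*, where 10.4% of all genes did not overlap. An exact permutation test over strains cannot give a two-sided p below 0.1 with 3 strains against 3.

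Control libraries were compared to ask whether the classes differed before copper. That comparison held no strain term, so libraries of the same strain were taken as separate observations. None of the 33 members was called between the classes in control libraries by edgeR's quasi-likelihood test, where 5.36% of all genes were called, and 1 (*PGRP-SD*) had an unadjusted p below 0.05, where 12.8% of all genes did. DESeq2 also called 0. Among the 6 strains 21 of 33 members differed in control libraries, where 81.7% of all genes did. These were 7 of 7 signalling genes, 3 of 3 TEP genes, 9 of 10 PGRP genes and 2 of 13 antimicrobial peptide genes (*AttD* and *DptA*). Without JUT-008 control 3, the library with the high peptide sum, 8 more antimicrobial peptide genes were called (*AttA*, *AttB*, *AttC*, *CecA1*, *CecC*, *DptB*, *Dro* and *Mtk*), and the *DptA* call was lost in 3 of 16 fits without 1 library.

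The strain means of *DptA* ran from 0.369 CPM in GIM-012 to 30.8 CPM in MUN-008 controls, and those of *AttC* from 5.37 to 79.6 CPM in the same strains without a call (edgeR's quasi-likelihood test, adjusted p = 0.0685). The MUN-008 means rest on control 4. *PGRP-SC2* ran from 5.57 CPM in COR-018 and 14.0 CPM in JUT-008 to between 45.8 and 48.5 CPM in AKA-018, MUN-020 and MUN-008, with adjusted p of 1.95e-05. *imd*, the adaptor gene of its pathway, was highest in COR-018 at 37.7 CPM and between 11.3 and 20.1 CPM in the other strains.

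Other genes of the same defence were taken from 5 lists of pathway genes. Of 26 other induced peptide genes in the table, 3 of 22 tested rose in tolerant strains, where 1.02% of all genes rose. In sensitive strains 3 rose and 1 fell of 23 tested, where 1.81% of all genes rose and 5.94% fell. The stress peptide gene *TotM* was called in both classes, with changes of 2.19 ± 0.37 (tolerant) and 2.15 ± 0.31 (sensitive). *TotA* gave 1.06 ± 0.25 and 1.08 ± 0.27. The Bomanin genes *BomS6* and *BomBc2* changed by 0.70 ± 0.16 and -0.66 ± 0.10 in sensitive strains. The list median was 0.06 in tolerant and -0.30 in sensitive strains.

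Of 4 Drosomycin-like genes tested, none was called in tolerant strains and all 4 in sensitive strains, 2 in each direction, where 1.53% and 7.75% of all genes were called. *Drsl2* and *Drsl3* rose by 2.64 ± 0.69 and 2.53 ± 0.70, and *Drsl4* and *Drsl5* changed by -1.38 ± 0.34 and -0.89 ± 0.21. The sensitive strains were not alike in *Drsl2* and *Drsl3*: both were called higher in AKA-018 and COR-018, and in JUT-008 they were too low for the test. Among these strains *Drsl4* and *Drsl5* were called lower in COR-018 only, with negative estimates in AKA-018 and JUT-008. AKA-018 had 2219 and 3235 counts of *Drsl4* in controls and 2224, 2321 and 2661 after copper, which overlap. In tolerant GIM-012 *Drsl3* rose from 0.376, 0.282 and 0.459 CPM to 5.997, 2.47 and 4.52 CPM (3.52 ± 0.40, edgeR's quasi-likelihood test, adjusted p = 0.0112). *Drsl4* and *Drsl5* were also called in the class by treatment interaction, with differences of 1.62 ± 0.40 and 1.03 ± 0.30. Of the lysozyme genes, which encode digestive enzymes of the midgut, 2 of 6 tested fell in sensitive strains (5.94% of all genes fell). *LysC* fell by 1.53 ± 0.44 and *LysD* by 1.53 ± 0.28, and none of 7 was called in tolerant strains. *LysC* had at most 3 counts per library in AKA-018 and COR-018. Its fall rested on JUT-008, with 897, 966 and 448 counts in controls and 282, 274 and 233 after copper. In GIM-012 alone, 2 of 23 other Imd genes were called lower and 1 of 17 other Toll genes higher, where 5.62% of all genes were called. Of 23 other Imd genes and 17 other Toll genes tested, none was called in either class by edgeR's quasi-likelihood test. At an unadjusted p below 0.05 there were 1 and 0 in tolerant strains, where 11.8% of all genes passed, and 8 and 8 in sensitive strains, where 39.4% did.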

How the data were processed

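Stranded mRNA libraries (TruSeq) of 34 pools of females were sequenced as 125 bp paired-end reads. Per the study's methods and the submitters' processing notes, reads were checked with FastQC 0.11.8, trimmed with Trim Galore 0.5.0 and cutadapt 1.18, and aligned to dm6 with STAR 2.6. The deposited values are raw counts per gene, which the authors made with featureCounts 1.6.2 on the reverse strand. Reads mapping to several places or overlapping several features were discarded, which lowers the counts of near-identical genes, and duplicates were kept. Males are named as removed in the table's title, with no explanation in the sources used here.

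Groups were taken from the strain and treatment labels. The 2 to 3 libraries of a group are separate pools of 20 females, and no replicate pair agreed within sampling noise (chi-square per degree of freedom of 8.7 to 274 over 32 pairs). Gene identifiers were matched to names through a BDGP6.54 annotation, from which positions were read. Each fit kept genes by edgeR's filterByExpr, scaled by TMM and used the quasi-likelihood test of edgeR 4.0.16 in R 4.3.3 (limma 3.58.1), with Benjamini-Hochberg adjustment over all genes tested. The copper fits of each class and both interactions held strain as a term, and the 6 single-strain fits used that strain's libraries alone. The comparison of the classes in controls held the class term only, so libraries of the same strain were taken as separate observations. A call needed an adjusted p below 0.05 and a fold over 1.5, or the adjusted p alone for the interactions and for the comparison among strains. Levels are CPM over 34 libraries, and log2 CPM used a prior count of 0.5. Scripts were tested on simulated data.

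Alternatives were DESeq2 1.42.0, RLE or library-size scaling, other count filters and fold thresholds, a replicate block, counts summed per strain and treatment, and leaving out strains or single libraries. Intervals of counts cover counting error only. The members and the gene and marker lists were chosen with earlier results of these data known. By rule, values of every library are given for members called in a class, in the class interaction or between classes in controls, or in at least 2 strains alone; members called in 1 strain are named, and at most 5 genes are named per other list. Values of every library for the other members shown were chosen after their values were seen. *IBIN* and *edin* were also named after their values were seen, outside the rule. No columns were left unmapped, and *Drs*, *PGRP-SC1a* and *Tep1* were not analysed here.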

Additional observations from a re-analysis of the deposited data

Results flagged for a closer look

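The first 6 results were single libraries far from the rest of their group of 8 or 9 libraries of a class and treatment, out of 132 groups examined, where chance at 1 in 20 gives 6.6. In MUN-008 control 4, the library with the highest peptide sum, *AttA* had 91.0 CPM, *PGRP-SA* 19.2 CPM and *Tep2* 250 CPM. In GIM-012 copper 1, *Dro* had 24.3 CPM, *Dif* 45.4 CPM and *dl* 73.8 CPM.

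In 13 members the copper response differed among the 6 strains by the strain by treatment interaction (edgeR's quasi-likelihood test, Benjamini-Hochberg adjusted p). Among the PGRP genes the adjusted p was 0.022 for *PGRP-SA*, 0.0326 for *PGRP-SB1*, 0.0106 for *PGRP-SC1b*, 0.00106 for *PGRP-SC2*, 0.00861 for *PGRP-LB* and 0.00234 for *PGRP-LF*. Among the TEP genes it was 0.0369 for *Tep2*, 0.028 for *Tep3* and 0.0114 for *Tep4*. Among the signalling genes it was 1.41e-05 for *Rel*, 0.0105 for *cact*, 0.00401 for *spz* and 0.00354 for *nec*.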

How the results depend on the processing

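Of 1322 values of single members under an alternative, 1180 kept their call, 142 lost it and 0 changed sign. The strain by treatment interaction and the comparison among strains in controls have no direction, so their values could not change sign. Fits in which a member was not tested are not among these values. Of 278 counts, 209 stayed within 1.5 times. In tolerant strains the count of members called, 1, became 0 with at least 10 counts in every library, 3 without GIM-012 (*Dro*, *PGRP-SA*, *PGRP-SC1b*), and 0 without MUN-008 or without MUN-020. In sensitive strains 2 became 1 with RLE or library-size scaling, with at least 1 count in a library, with at least 10 counts in every library, with a log2 fold change over 1.5, and without COR-018 or JUT-008, and 6 with no fold threshold. For the class by treatment interaction 0 became 1 with DESeq2 or library size alone (both *Rel*), 2 without MUN-008 (*PGRP-SB1*, *Tep4*), 1 without MUN-020 (*cact*) and 1 without AKA-018 (*Rel*). Between classes in controls 0 became 1 without AKA-018 (*PGRP-SC2*) and 1 without JUT-008 (*imd*). In single strains, a log2 fold change over 1.5 left 3 calls in GIM-012, 0 in MUN-020, 1 in AKA-018 and 0 in COR-018. MUN-020 gave 2 with DESeq2, library size alone or at least 10 counts, and 3 with no fold threshold. AKA-018 gave 1 with at least 1 or at least 10 counts, and JUT-008 gave 0 with at least 10 counts. The cause was not tested.

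The replicate numbers did not pair the samples: 2 of 15 same-numbered pairs had deviations correlated over 0.1, with a median r of -0.102. With a replicate block, members called went from 1 to 13 in MUN-020, from 2 to 14 in AKA-018, from 5 to 0 in COR-018 and from 1 to 0 in JUT-008. MUN-020 and AKA-018 have 5 libraries each, which leaves little to estimate the spread once the block is fitted. The shares of all genes called in their block fits are not given here. The counts of 13 and 14 are therefore not read as particular to the members.

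Leaving out 1 library at a time gave 1 to 1 members called in tolerant strains, 1 to 2 in sensitive strains, 0 to 2 for the class interaction, 8 to 15 for the strain interaction, 0 to 13 in GIM-012, 1 to 1 in MUN-008, 0 to 3 in MUN-020, 0 to 13 in AKA-018, 1 to 5 in COR-018, 0 to 1 in JUT-008, 0 to 1 between classes in controls and 19 to 29 among strains in controls.

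Over all genes, the tolerant count of 177 became 320 with no fold threshold, 34 with a log2 fold change over 1.5 and 85 without MUN-008. The sensitive count of 954 became 3111, 253, and 497 or 567 without COR-018 or JUT-008. The class interaction count of 517 became 1007 with DESeq2, 41 without GIM-012, 22 without COR-018, 142 without JUT-008, 1395 without MUN-020, 1154 without AKA-018 and 0 with counts summed per strain and treatment. In GIM-012, 622 became 1363 with DESeq2, 1030 with library size alone and 62 with a log2 fold change over 1.5. That threshold gave 48 of 123 in MUN-008, 37 of 470 in MUN-020, 362 of 1173 in COR-018 and 196 of 453 in JUT-008. DESeq2 gave 258 in MUN-008 and 752 in JUT-008, no fold threshold 1828 in MUN-020 and 2978 in COR-018, at least 10 counts 244 of 748 in AKA-018, and the replicate block 206 in COR-018 and 106 in JUT-008. Between classes in controls 655 became 11 with at least 10 counts, 341 with the block, 6, 21 and 275 without GIM-012, MUN-008 or MUN-020, and 1093 without AKA-018. Depth limits the cecropins, *AttD* and *PGRP-SC1b*, where a single count is 0.0235 to 0.0439 CPM.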
